A study of Mus musculus with 3 samples.

Results

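The metallothioneins and the genes that handle zinc in the cell were followed here in mouse embryonic fibroblasts (MEF), which are primary cells grown from minced embryos. The members are 9 genes taken by name, namely the metallothioneins Mt1, Mt2 and Mt3, the metal-responsive factor Mtf1, the zinc exporters Slc30a1 and Slc30a4, and the zinc importers Slc39a6, Slc39a10 and Slc39a14. All probes carrying one of these names were taken, which gave 12 of the 55681 gene probes on the array and 9 of its 35696 gene names. MEF of C57BL/6 embryos, freed of internal organs, legs and heads, were grown without n-butylidenephthalide (BP) as the control, with BP at 10 µg/ml (BP10) or with BP at 40 µg/ml (BP40). BP is a compound from Angelica sinensis. The deposited labels give the control as untreated and the study's text gives it as DMSO, and the length of the BP treatment before RNA extraction is not given in the sources used here. Cy3-labeled RNA of each condition went onto 1 Agilent whole genome array, so 3 arrays were measured in all and every ratio compares 1 array with another.

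Metallothioneins are small proteins rich in cysteine that bind zinc and copper ions in the cytosol. When free zinc rises, the zinc finger protein Mtf1 binds short metal-responsive elements in the promoters of the Mt1, Mt2 and Slc30a1 genes and activates them, and glucocorticoids and oxidative stress are further textbook inducers of Mt1 and Mt2. Transporters of the Slc30 (ZnT) family move zinc out of the cytosol and those of the Slc39 (ZIP) family move it in.

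The promoters of Mt2, Mt1 and Mt3 are shown because these 3 genes lie side by side, and the first 2 of them gave the largest changes among the members. Each line gives the 250 bases before the transcription start, 5′ to 3′, from RefSeq with the build GRCm38.p6. Capitals mark the core of the metal-responsive element, searched on both strands as TGCACNC or TGCGCNC.
Mt2 (chr8:94172368-94172617, plus strand): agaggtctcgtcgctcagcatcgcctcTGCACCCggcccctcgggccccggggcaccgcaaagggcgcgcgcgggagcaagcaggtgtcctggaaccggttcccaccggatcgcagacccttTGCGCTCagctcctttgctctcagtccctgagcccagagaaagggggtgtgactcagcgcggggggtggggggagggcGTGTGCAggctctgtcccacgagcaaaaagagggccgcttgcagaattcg
Mt1 (chr8:94178839-94179088, plus strand): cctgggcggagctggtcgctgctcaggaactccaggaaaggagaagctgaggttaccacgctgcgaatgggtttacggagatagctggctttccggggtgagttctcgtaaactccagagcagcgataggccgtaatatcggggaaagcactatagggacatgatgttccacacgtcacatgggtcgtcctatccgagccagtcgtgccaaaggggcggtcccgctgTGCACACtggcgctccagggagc
Mt3 (chr8:94152357-94152606, plus strand): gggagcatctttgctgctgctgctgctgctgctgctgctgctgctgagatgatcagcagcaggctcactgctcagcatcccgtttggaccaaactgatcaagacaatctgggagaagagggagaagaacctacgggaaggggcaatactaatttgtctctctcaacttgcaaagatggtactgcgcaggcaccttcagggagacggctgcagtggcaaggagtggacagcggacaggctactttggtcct
The Mt2 window held 3 cores, which began 223, 128 and 50 bases before the start, and the Mt1 window held 1, which began 23 bases before it. Each window depends on the start that RefSeq gives, and bases beyond that start were not searched. The counts are therefore those of the windows and not of whole promoters. No core was found in the Mt3 window. Among the other members the Slc30a1 window held 1 core, that of Slc30a4 held 2, and those of Mtf1 and Slc39a10 held 0. There was no window for Slc39a14, and Slc39a6 was left out of the listing. Of 32851 RefSeq windows of the same length, 21.4% held at least 1 core, 5.17% at least 2 and 1.26% at least 3. The antioxidant element, searched as TGACNNNGC on both strands, was found at 1 place in the Mt2 window and 1 in the Slc30a1 window, and it was present in 10.2% of all windows. It overlapped no metal-responsive core in either window. A match to these letters is a description of the sequence and no measurement of binding.

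The signal of each spot was taken as log2 relative to the 75th percentile of the gene spots of its array, and is called the normalized log2 signal. A ratio is the difference of that value between a pair of arrays. A probe was called at a change of at least 2-fold (a log2 ratio of 1 or more in size) with a spot well above background on either of the arrays compared. With 1 array per condition no test between conditions and no p-value can be given. The only error at hand is that of the scanner software for each spot, about 0.20 on the log2 scale for a ratio of 2 bright spots, and it covers nothing of the spread between cultures. The 3 arrays lay on 1 slide, but those of BP10 and BP40 were scanned in one session and that of the control in another. Scan session and BP treatment cannot be told apart in a ratio against the control, a limit that does not touch BP40 against BP10.

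The share of gene spots well above background was 81.7% for the control, 68.3% for BP10 and 69.1% for BP40, and no gene spot was saturated. All 12 fibroblast markers were above background on the 3 arrays. Their summed level changed by -0.47 for BP10 and -0.36 for BP40 against the control, and by 0.10 for BP40 against BP10, on the log2 scale. All 15 macrophage markers were also above background on the 3 arrays, with a summed change of -0.24, -0.09 and 0.15 in the same 3 comparisons. Of the markers of other cell types, 10 of 11 neural and glial, 6 of 8 epithelial and 5 of 7 endothelial genes were above background on all 3 arrays. The summed changes were -0.27, -0.39 and -0.12 for the neural and glial markers, under 0.01 in size, -0.52 and -0.51 for the epithelial and -0.32, 0.03 and 0.35 for the endothelial. A sum follows the brightest genes, and the median ratios differed from it. In the same order they were -0.64, -0.63 and -0.05 for the fibroblast and -0.28, 0.05 and 0.16 for the macrophage markers. For the neural and glial markers they were -0.71, -0.57 and 0.05. The epithelial medians were -0.03, -0.38 and -0.13, and the endothelial 0.37, 0.01 and -0.04. The part of these cell types in the values of the metallothioneins was not tested. In a bulk sample, more RNA per cell and more cells of a type cannot be told apart.

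Mt1 and Mt2 encode the metallothioneins found in most tissues. Mt2 and the brighter Mt1 probe were lower on the BP10 array than on the control array and higher on the BP40 array than on either. The signal of Mt2 was 92325 ± 9232 (software error of the spot) in the control, 31490 ± 3149 with BP10 and 127777 ± 12778 with BP40. The normalized log2 signals were 5.73 in the control, 4.49 with BP10 and 6.72 with BP40, so BP10 was the lowest of the arrays and BP40 the highest. Its log2 ratio was -1.24 for BP10 against the control (2.36-fold lower), which was a call. BP40 stood at 0.99 over the control (1.99-fold higher), just short of a call. BP40 over BP10, scanned together, was 2.23 (4.68-fold higher), which was a call. Each of the 3 ratios has a software error of 0.20, so the arrays differed by more than the error of the spot.

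Mt1 followed the same order with smaller steps. Its bright probe gave 153784 ± 15378 in the control, 73064 ± 7306 with BP10 and 204443 ± 20444 with BP40. The normalized log2 signals were 6.46, 5.70 and 7.40 on the control, BP10 and BP40 arrays. The ratio was -0.76 for BP10 against the control (1.69-fold lower) and 0.93 for BP40 against the control (1.91-fold higher), and neither was a call. BP40 over BP10 was 1.69 (3.23-fold higher), a call that was lost at 0.77 with spike-in scaling. Again BP10 was the lowest and BP40 the highest, and each difference was over 3 times its error of 0.20.

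The letters of the bright Mt1 probe, the Mt2 probe and the Mt3 probe were compared with one another. The Mt1 and Mt2 probes, each of 60 bases, share no run longer than 7 bases. Those of Mt1 and Mt3 share none longer than 5, and those of Mt2 and Mt3 none longer than 7. No probe was compared with the transcript of another gene, so cross-hybridization was not tested. A second Mt1 probe, 321 bases before the bright one in the files' coordinates, was dim. It gave signals of 288 in the control, 261 with BP10 and 318 with BP40, with normalized log2 signals of -2.60, -2.43 and -1.93. Its ratios were 0.17 for BP10 and 0.67 for BP40 against the control and 0.50 for BP40 against BP10. Unlike the bright probe, this one was not lower on the BP10 array. Its values for BP40 depended on the scaling, turning to -0.10 against the control and -0.42 against BP10 with spike-in probes. It is named Mt1 only in the files of the BP10 and BP40 arrays, whereas the control array's file, which carries an older annotation, lists it under an Ensembl transcript. In the files' mm9 coordinates the bright Mt1 probe lies on the plus strand at chr8:96704165-96704224, the dim one at chr8:96703844-96703903, the Mt2 probe at chr8:96697371-96697430 and the Mt3 probe at chr8:96677927-96677986. The files assign each probe to a transcript and give no exon or intron for it.

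Mt3, the metallothionein known best from brain, was above background on all 3 arrays. Its signal was 2258 ± 226 in the control, 1685 ± 169 with BP10 and 1934 ± 194 with BP40. The normalized log2 signals were 0.37, 0.27 and 0.67 in that order. The ratios were -0.11 for BP10 and 0.30 for BP40 against the control and 0.41 for BP40 against BP10, each with an error of 0.20. None was a call. With scaling on spike-in probes in place of the gene spots, the last 2 ratios turned to -0.47 and -0.51.

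**Figure D1:**
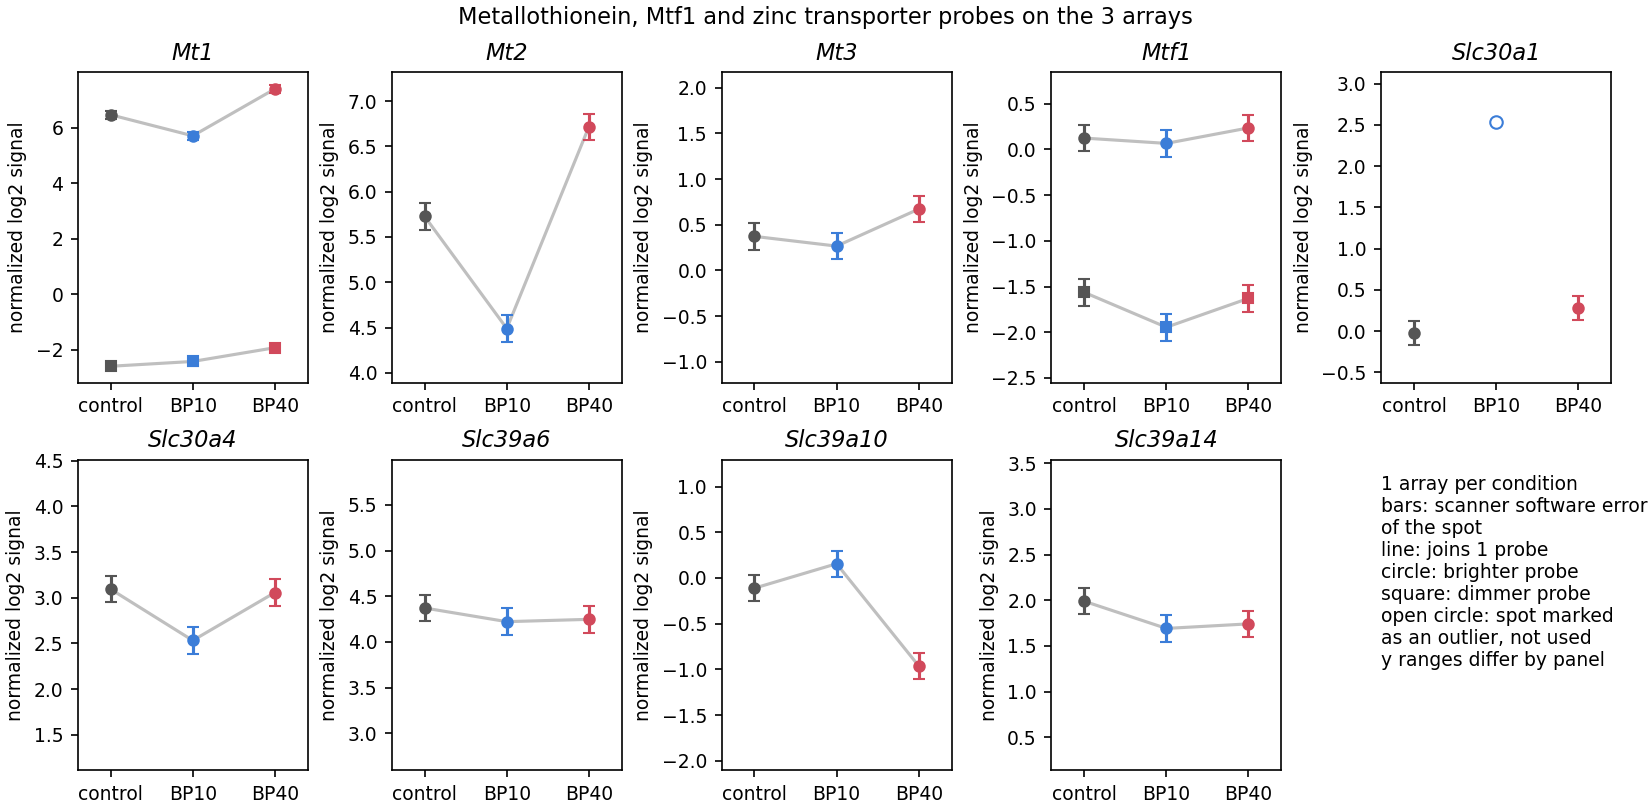
Normalized log2 signal (y axis, relative to the 75th percentile of each array) of the member probes above background on the control, BP10 and BP40 arrays (x axis), 1 panel per gene, with bars for the software error of the spot. Mt2 and the brighter Mt1 probe were lowest on BP10 and highest on BP40, Slc39a10 was lowest on BP40 at -0.96, and the open circle for Slc30a1 at 2.54 is a spot that the scanner software marked as an outlier.

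Mtf1, the zinc-sensing transcription factor of these genes, had 3 probes, of which 2 were above background on all arrays. The brighter gave signals of 1902 in the control, 1468 with BP10 and 1430 with BP40, with normalized log2 signals of 0.12, 0.07 and 0.24. Its ratios were -0.06, 0.11 and 0.17 for BP10 against the control, BP40 against the control and BP40 against BP10, all within the error of 0.20. The dimmer gave 590, 364 and 392, with normalized log2 signals of -1.56, -1.95 and -1.63 and ratios of -0.38, -0.07 and 0.32. No Mtf1 probe was called. BP40 lay above the control on the brighter probe and below it on the dimmer one, within the error on both. The third was not well above background on any array, with signals of 7.54, 10.1 and 8.29, and no ratio is read from it. The brighter probe lies at chr4:124526365-124526424, the dimmer at chr4:124522092-124522151 and the third at chr4:124524812-124524871, all on the plus strand in mm9. Under spike-in scaling the ratios of BP40 to the control and to BP10 were -0.66 and -0.75 for the brighter and -0.84 and -0.60 for the dimmer.

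Slc30a1 (ZnT1) exports zinc across the plasma membrane and is a target gene of Mtf1. Its probe, at chr1:193736760-193736819 on the plus strand in mm9, gave 1711 ± 171 on the control array and 1479 ± 148 on BP40, with normalized log2 signals of -0.03 and 0.28. The ratio of BP40 to the control was 0.31, which was no call, and it turned to -0.46 under spike-in scaling. On the BP10 array the spot gave 8132 and was marked by the software as a non-uniform outlier, so it entered no comparison and Slc30a1 has no ratio for BP10. The SD of its pixels was 0.454 of their mean there, beside 0.134 on the control array and 0.103 on BP40.

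Slc30a4 (ZnT4) carries zinc into vesicles and is the gene mutated in the lethal milk mouse. Its probe, on the minus strand at chr2:122507056-122507115 in mm9, gave 14884 ± 1488 in the control, 8106 ± 811 with BP10 and 10105 ± 1010 with BP40. The normalized log2 signals were 3.09, 2.53 and 3.06, so BP10 was the lowest and the other arrays differed by less than the error. The ratios were -0.56 for BP10 against the control, -0.04 for BP40 against the control and 0.52 for BP40 against BP10. None was a call, and the last turned to -0.39 under spike-in scaling.

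Slc39a10 (ZIP10) imports zinc across the plasma membrane, and its gene is known to be repressed by Mtf1 in cells given zinc. It was the only member probe called lower on BP40 than on BP10. Its signal was 1614 ± 162 in the control, 1561 ± 156 with BP10 and 623 ± 62.8 with BP40. The normalized log2 signals were -0.11, 0.16 and -0.96, so BP40 was the lowest of the arrays by a wide margin. The ratios were 0.27 for BP10 against the control, -0.85 for BP40 against the control (1.80-fold lower) and -1.12 for BP40 against BP10 (2.17-fold lower). The probe lies on the minus strand at chr1:46865343-46865402 in mm9.

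Slc39a14 (ZIP14), which imports zinc, iron and manganese, gave 6923 ± 692 in the control, 4526 ± 453 with BP10 and 4059 ± 406 with BP40. The normalized log2 signals were 1.99, 1.69 and 1.74. Its ratios were -0.30 for BP10 and -0.25 for BP40 against the control and 0.05 for BP40 against BP10, and none was a call. Under spike-in scaling the ratio of BP40 to the control was -1.02 and that to BP10 was -0.87. The probe lies on the minus strand at chr14:70703394-70703453 in mm9.

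Slc39a6 (ZIP6), a zinc importer of the plasma membrane that pairs with Slc39a10, differed least among the members under the main scaling. Its signal was 36085 ± 3608 in the control, 26142 ± 2614 with BP10 and 23053 ± 2305 with BP40, and the normalized log2 signals were 4.37, 4.22 and 4.25. The ratios of -0.15, -0.12 and 0.03, for BP10 against the control, BP40 against the control and BP40 against BP10, were all within the error of 0.20. Under spike-in scaling the ratios of BP40 to the control and to BP10 were both -0.89. The probe lies on the minus strand at chr18:24738561-24738620 in mm9.

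For BP10 against the control 11 of the 12 member probes had a ratio, and 1 was called lower (Mt2) and 0 higher. Over all gene probes 9.67% were called lower and 2.73% higher in that comparison. Against the control, 0 of 12 were called for BP40, beside 8.51% of all probes called lower and 2.47% higher. Of 11 with a ratio for BP40 against BP10, 2 were called higher (Mt1 and Mt2) and 1 lower (Slc39a10), where over all probes 1.77% were called higher and 1.96% lower. The median ratio of the members was -0.15, 0.20 and 0.32 in these 3 comparisons, and that of all probes -0.23, -0.14 and 0.04; the Mtf1 probe below background is included among the members. The split of all calls between higher and lower moved with the scaling. For BP10 against the control 21.9% of the probes called were higher, which became 56.9% with quantile normalization, 55.5% with the median ratio of probes of like brightness subtracted, 37.9% with the normexp background and 36.1% with spike-in scaling. The share for BP40 against the control was 22.3% and became 57.2%, 55.9%, 49.7% and 1.40% under the same settings. Between BP40 and BP10 it was 47.4%, beside 37.3% when the percentile was taken over probes above background on all arrays and 1.19% with spike-in scaling.

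The positions of Mt1 and Mt2 among bright probes were then described, a bright probe being one above background on all 3 arrays with a mean normalized log2 signal over 0. There were 13191 of these, and the SD of their ratios was 0.39, 0.38 and 0.39 for BP10 against the control, BP40 against the control and BP40 against BP10. For BP40 against BP10 only 16 of them had a higher ratio than Mt2 and 35 a higher one than Mt1. For BP10 against the control 98 had a lower ratio than Mt2 and 441 a lower one than Mt1. Between BP40 and the control 109 had a higher ratio than Mt2 and 146 than Mt1. Bright probes at or below -0.76 on BP10 and at or above 0.93 on BP40, limits set by Mt1 itself, numbered 3 and were those of Mt1, Mt2 and Gm2138, the last with -1.09 and 4.54. Mt1 and Mt2 meet these limits by construction, so the count is no measure of how rare their pattern is. Bnip3 (-1.62 and 0.91) and Mgarp (-1.67 and 0.91) lay just below the BP40 limit. The BP10 and BP40 ratios both use the same control array.

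**Figure D2:**
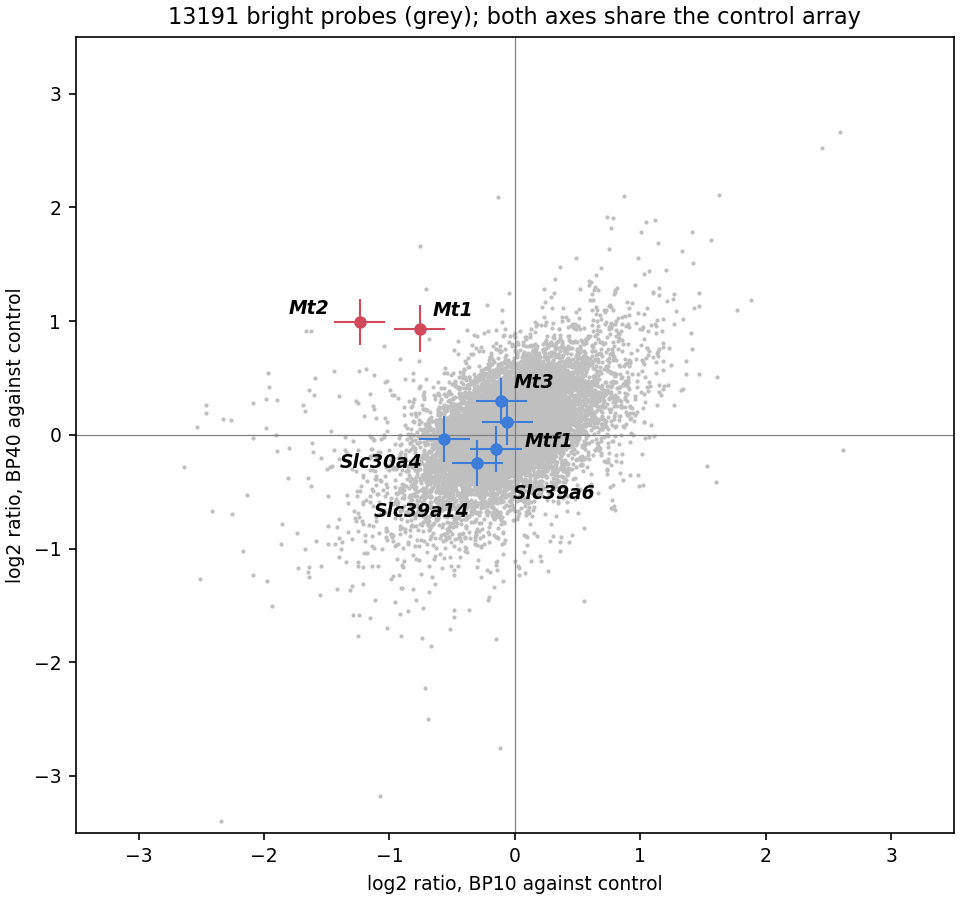
Log2 ratio of BP10 to the control (x axis) and of BP40 to the control (y axis) for the bright probes (grey), with 7 member probes in color and bars for the software error of the ratio; 4 probes lie outside the axes. Mt1 and Mt2 (red) stand to the upper left at -0.76 and 0.93 and at -1.24 and 0.99, and the other 5 (blue) lie within the mass of the probes.

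The genes whose pair of ratios against the control lay nearest to that of Mt1, among 10948 other bright genes, were Ntrk2 (a neurotrophin receptor) with -0.69 for BP10 and 0.84 for BP40, at a distance of 0.118, Slc2a1 (a glucose transporter) with -0.77 and 0.65, Fam162a with -0.91 and 0.67, Pip5k1a (a phosphoinositide kinase) with -1.05 and 0.78, and Vdr (the vitamin D receptor) with -0.49 and 0.74. Those nearest to Mt2 were Pip5k1a, at a distance of 0.285, Bnip3 (a mitochondrial outer membrane protein) with -1.62 and 0.91, Prelid2 with -1.18 and 0.58, Pygl (a glycogen phosphorylase) with -1.24 and 0.56, and Mgarp with -1.67 and 0.91. The distance is Euclidean over the 2 log2 ratios. With spike-in scaling the BP40 ratios of Slc2a1, Fam162a, Vdr, Prelid2 and Pygl to the control turned to between -0.21 and -0.03. Likeness over 2 ratios from 3 arrays is a weak description.

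Since Mt1 to Mt4 lie in 1 cluster, the probes within 200 kb of the Mt2 probe were listed. Of 14 probes, 6 others than those of Mt1, Mt2 and Mt3 were above background on all 3 arrays, from the 5 genes Nudt21, Ogfod1, Bbs2, Mt4 and Nup93. Their ratios for BP40 against BP10 lay between -0.40 and 0.60, below the 1.69 of Mt1 and 2.23 of Mt2. Mt4, the metallothionein of squamous epithelium, was dim at normalized log2 signals of -3.62 in the control, -2.31 with BP10 and -2.11 with BP40. It was called higher on both BP arrays than on the control, by 1.30 and 1.51, and differed between them by 0.21. Bbs2, also dim, gave 0.89 and 0.84 against the control. Among the probes of the window above background on all 3 arrays, only those of Mt2 and Mt1 (the bright one) were higher on BP40 than on BP10 by 2-fold or more. LOC100039113, above background on 1 array, gave 1.72.

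**Figure D3:**
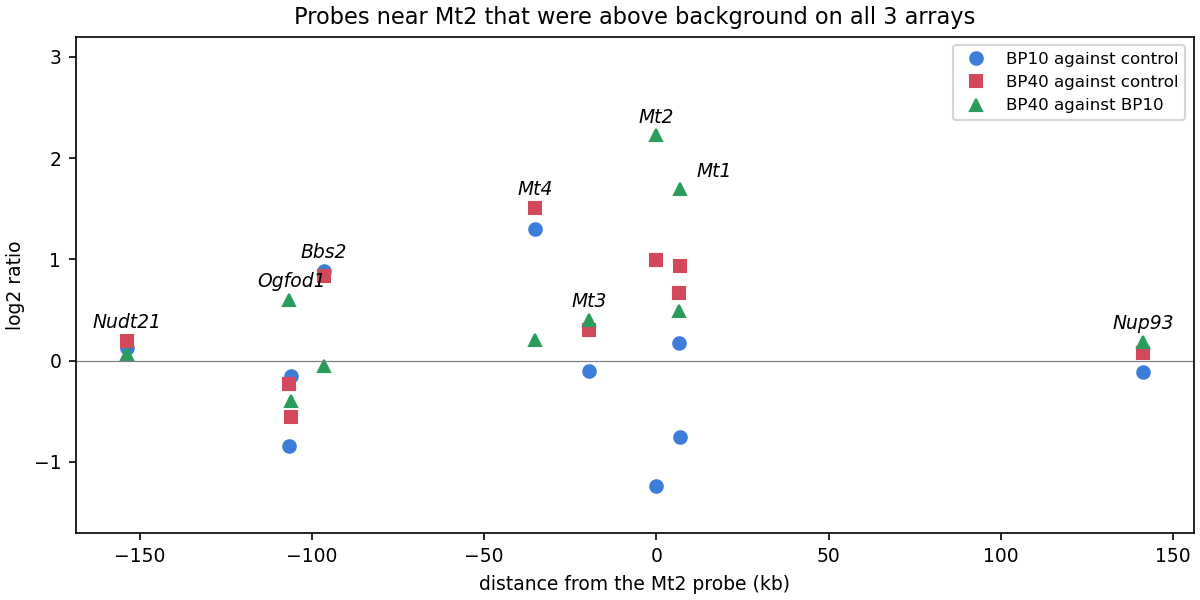
Log2 ratio (y axis) of the probes above background on all 3 arrays against the distance from the Mt2 probe (x axis, kb), for the 3 comparisons. Mt2 and the bright Mt1 probe reach 2.23 and 1.69 for BP40 against BP10 (triangles), and the highest value of any other gene in that comparison is 0.60.

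The remaining zinc transporters of both families and Mt4, 20 genes each represented by 1 chosen probe, were described as the rest of the pathway, and 16 of them were above background on all 3 arrays. For BP10 against the control 2 were called higher, Mt4 and Slc30a3 (1.33), and 2 lower, Slc39a2 (-1.39) and Slc39a4 (-1.39). Over all genes 2.64% were called higher and 10.3% lower in that comparison. At BP40, 1 was higher than the control (Mt4) and 1 lower (Slc39a4, -1.05), beside 2.53% and 9.03% of all genes. Between the doses 0 were higher and 1 was lower (Slc30a3, -1.24), beside 1.89% and 1.78%. The median ratio of the list was -0.03, -0.04 and 0.06, and that of all genes -0.23, -0.11 and 0.06.

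All of the genes called here were dim. Slc30a3, which loads zinc into synaptic vesicles, had normalized log2 signals of -4.84 in the control, -3.52 with BP10 and -4.75 with BP40. Slc39a2, a plasma membrane importer, had -1.73, -3.13 and -2.32. Slc39a4, the intestinal importer whose loss causes acrodermatitis enteropathica, had -2.16, -3.55 and -3.21. Among the brighter genes, Slc39a7, which releases zinc from the endoplasmic reticulum, changed little, with normalized log2 signals of 6.05, 6.10 and 6.16. Slc39a1, a plasma membrane importer, had 5.13, 4.54 and 4.79. Slc39a11 gave 3.04, 2.64 and 3.63, and its ratio of BP40 to BP10 was 0.99, which fell to 0.07 with spike-in scaling. Its other probe gave 1.58 for BP40 against BP10 and -1.65 for BP10 against the control. Slc39a8, which carries zinc, iron and manganese, had a ratio of 0.84 in the same comparison, which turned to -0.08 with spike-in scaling. None of the called ratios of this list changed direction under another scaling, but several fell short of 2-fold under at least 1 of them. Ratios of the same genes that were not called did change direction, such as that of Mt4 for BP40 against BP10, from 0.21 to -0.71 with spike-in scaling. Mt4 came to as little as 0.97 for BP10 and 0.74 for BP40 against the control. Slc30a3 came to 0.90 for BP10 against the control and -0.48 for BP40 against BP10, and Slc39a4 to -0.69 for BP40 against the control. The calls of Slc39a2 and Slc39a4 for BP10 against the control held under each scaling.

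**Figure D4:**
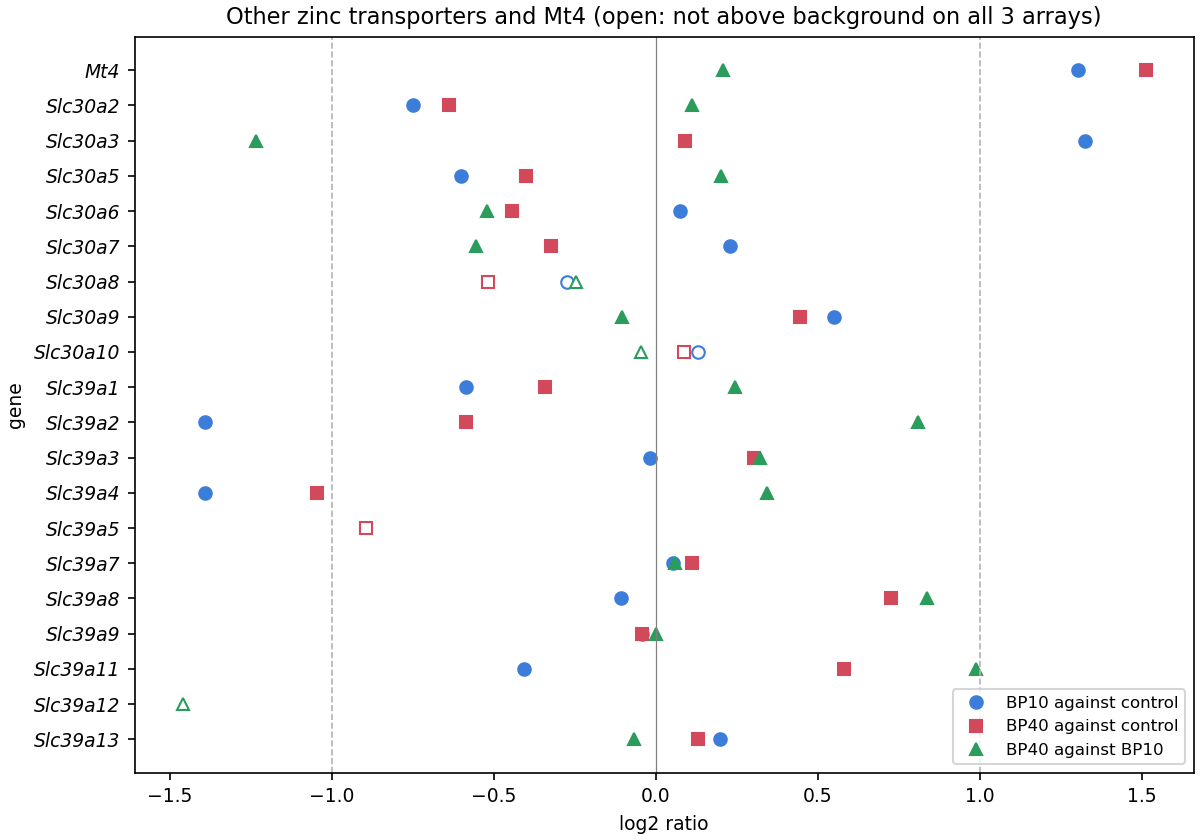
Log2 ratio (x axis) of the 20 other zinc genes (y axis) in the 3 comparisons, with dashed lines at a 2-fold change and open symbols for genes not above background on all 3 arrays. Mt4 reaches 1.30 and 1.51 against the control, and Slc39a4 lies at -1.39 and -1.05.

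Genes of copper and iron handling and of the glucocorticoid response were described for comparison. Of 14 copper genes 2 were called lower for BP10 against the control, where 10.3% of all genes were, namely the copper pump Atp7b (-1.62) and the copper chaperone Cox17 (-1.56, whose 3 probes ranged from -1.56 to 0.68), and 0 in the other comparisons. The 3 probes of Steap2 ranged from -0.74 to 2.35 for BP40 against the control and from -1.23 to 2.60 for BP40 against BP10. Only its chosen probe, with -0.52 and -0.23, was counted. The copper list had medians of -0.16, -0.08 and 0.11 in the 3 comparisons, and all genes had -0.23, -0.11 and 0.06. Of 16 iron genes, all above background, 0 were called in any comparison. Over all genes 2.64% were called higher and 10.3% lower for BP10 against the control. The shares were 2.53% and 9.03% for BP40 against the control and 1.89% and 1.78% for BP40 against BP10. With lists this short, 0 calls do not set the copper or iron genes apart from all genes. The medians of the iron list were -0.05, 0.05 and 0.32. The ferritin heavy chain gene Fth1, the main iron store, had normalized log2 signals of 7.13, 7.32 and 7.80. Of 12 glucocorticoid response genes, a list that includes Mt2, 3 were called lower for BP10 against the control, beside the same 10.3% of all genes, namely Mt2, the transcription factor Cebpd (-1.19) and the transcription factor Zbtb16 (-1.02). At BP40 1 was called higher than the control, the phosphatase Dusp1 (1.02), beside 2.53% of all genes. Between the doses Mt2 was the only call, where 1.89% of all genes were called higher. Over the 12 genes 8 were lower and 4 higher on BP10 than on the control, and 6 were higher and 6 lower on BP40. The medians of all genes, -0.23 and -0.11 in these comparisons, were below 0 as well, so most genes of the array were lower. The receptor targets differed among themselves, with -0.38 for BP10 and 0.44 for BP40 against the control for Sgk1, and -0.92 and -0.67 for Fkbp5. The medians of the list were -0.34, -0.10 and 0.34. With other scalings Cox17 came to as little as -0.89, Zbtb16 to -0.61 and Dusp1 to 0.25, which ended these calls.

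The ratios of the members that were called were followed under each way of scaling the arrays. For BP40 against BP10, Mt2 stayed between 1.31 and 2.23 and the bright Mt1 probe between 0.77 and 1.69, the lowest value of each being that with spike-in scaling. For BP10 against the control Mt2 lay between -1.24 and -1.06 and Mt1 between -0.77 and -0.58. For BP40 against the control Mt2 lay between 0.22 and 0.999 and Mt1 between 0.16 and 0.93, and with spike-in scaling the higher value of Mt1 was within the error of the ratio. Slc39a10 stayed below BP10 on the BP40 array, between -2.04 and -1.06. Spike-in scaling used 7 control probes and moved the median ratio of all gene probes by 0.15, -0.77 and -0.92 for BP10 against the control, BP40 against the control and BP40 against BP10.

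**Figure D5:**
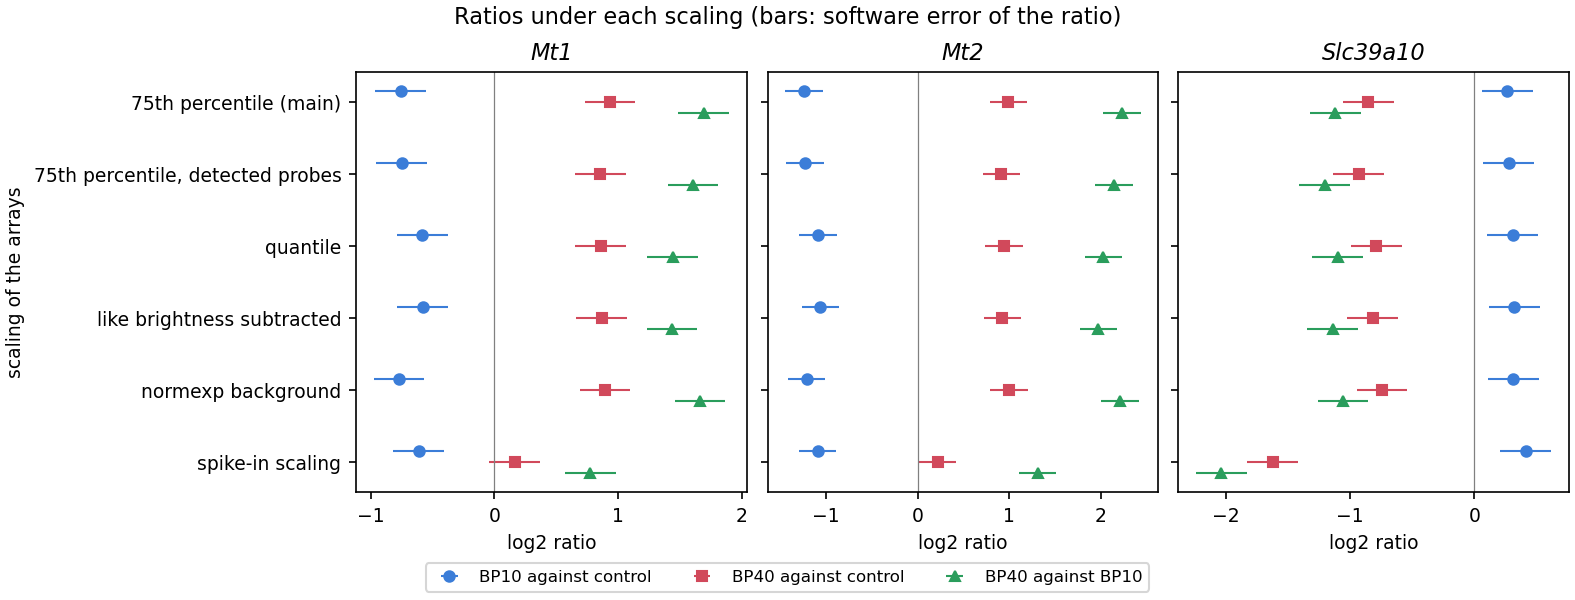
Log2 ratio (x axis) of the bright Mt1 probe, Mt2 and Slc39a10 in the 3 comparisons under 6 ways of scaling the arrays (y axis), with bars for the software error of the ratio. No ratio of these probes changed sign, and the higher Mt1 and Mt2 values on BP40 than on the control shrank to 0.16 and 0.22 with spike-in scaling.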

How the data were processed

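RNA of 3 MEF samples was measured on 1 array each (control, BP10 and BP40). The authors deposited the scanner output of Feature Extraction 10.5.1.1, with an intensity per spot that the software had background-corrected and detrended but not scaled between arrays. Its flags for spots above background, saturated or outlying were deposited as other columns. A deposited table of the whole series repeats these intensity values, which matched to within 0.0001 of their size at 100% of spots, and 0 columns were left unmapped.

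From these, log2 of the intensity was taken, the 75th percentile of gene spots not marked as outliers was subtracted, and spots of a probe were averaged. Each gene in a list was represented by 1 probe, chosen by the number of arrays above background and then by brightness. Where a probe was above background on only 1 of the arrays compared, it was called on its ratio to the higher of its own signal and the lowest signal above background. Median ratios use all values without this bound. RefSeq accessions named 47.5% of the probes, and the BP40 file named the rest. Every member probe is given, and of the lists each gene called in any comparison was named; other genes named from the lists were chosen after their values were seen. The members and lists were chosen with earlier results of these data known. Python 3.11.15, numpy 2.4.6, pandas 2.3.3, matplotlib 3.10.9, R 4.3.3 and limma 3.58.1 (normexp, offset 50) were used. The calling code was run on simulated data with shifts well above the threshold and every probe set above background. That run checked the code and says nothing of calls near 2-fold or of dim probes. The alternatives were other scalings, the normexp background, other filters and folds, the median of a gene's probes and the series table. The alternatives for the copper, iron and glucocorticoid lists, and the value of the outlying Slc30a1 spot, were added after seeing the data. Neither spread between cultures nor depth in reads exists here, so the number of arrays limits the precision.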

Additional observations from a re-analysis of the deposited data

Results flagged for a closer look

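Mt2 and the bright Mt1 probe moved away from the control in opposite directions at the 2 doses. Both probes were lower on the BP10 array and higher on the BP40 array. The log2 ratio of BP40 to BP10 was 1.69 for this Mt1 probe and 2.23 for Mt2. The dim Mt1 probe was not lower on BP10, with 0.17 against the control. With spike-in scaling the BP40 ratios to the control fell to 0.16 for the bright Mt1 probe and 0.22 for Mt2. Scan session and BP treatment cannot be told apart in the ratios against the control. With 1 array per condition these differences were not tested.

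The Slc30a1 spot on the BP10 array, left out because the software marked it as a non-uniform outlier, had a normalized log2 signal of 2.54. If it were kept, Slc30a1 would be 2.56 above the control on BP10 and BP10 would be 2.25 above BP40 on the log2 scale. Neither value was used.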

How the results depend on the processing

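No paired analysis was possible because the conditions share no replicate, and none was left out for the same reason. Of 203 recomputed ratios of member probes 177 moved by less than the software error, 26 by more, and 0 of the called ratios reversed. The 177 include those of the Mtf1 probe below background, whose error of 2.05 left little room to move by more. Reversal was looked for only in the few called ratios, and several others, such as those of Mt3, changed sign with spike-in scaling. Of 96 recomputed counts 63 stayed within 1.5 times of the main count. Both tallies include the series table, which repeats the intensities used here, so its ratios and counts could not move.

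Over all gene probes, spike-in scaling called 18944 for BP40 against the control and 14148 for BP40 against BP10, beside 6084 and 2065 in the main setting. Normexp called 1979 for BP10 against the control, beside 6853. All probes were not counted at 1.5-fold or 3-fold. The counts below are therefore not particular to these genes. The member probes called for BP10 against the control (1) numbered 2 at 1.5-fold and 0 at 3-fold, and for BP40 against the control (0) they numbered 4 at 1.5-fold and 2 with spike-in scaling. The 3 member calls for BP40 against BP10 became 2 with spike-in scaling, where Mt1 was lost, and 2 at 3-fold, where Slc39a10 was lost. The other zinc genes called for BP10 against the control (4) numbered 7 at 1.5-fold, 0 at 3-fold and 2 with normexp. For BP40 against the control (2) they numbered 6 at 1.5-fold, 0 at 3-fold, 8 with spike-in scaling, and 1 with each of quantile normalization, normexp and subtraction of the median ratio of like brightness. For BP40 against BP10 (1) they numbered 4 at 1.5-fold, 0 at 3-fold, 4 with spike-in scaling, 0 with normexp, 2 when dim probes were not filtered and 2 when the median over a gene's probes was used.

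The copper, iron and glucocorticoid genes called for BP10 against the control (5) numbered 12 at 1.5-fold, 1 at 3-fold and 3 with normexp. For BP40 against the control (1) they numbered 7 at 1.5-fold, 10 with spike-in scaling, 2 when dim probes were not filtered, and 0 at 3-fold, with quantile normalization, with normexp, with the percentile over probes above background on all arrays and with subtraction of the median ratio of like brightness. For BP40 against BP10 (1) they numbered 10 at 1.5-fold, 10 with spike-in scaling and 2 with no filter. The rise of calls over all probes with spike-in scaling, given above, applies to these lists as well. The cause of these moves was not tested, beyond the thresholds and filters themselves. Quantile normalization, normexp and subtraction by brightness moved the median ratio of all probes against the control by between 0.14 and 0.23.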
